A study of Mus musculus with 35 samples.

Results

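The change in polyadenylated RNA from meiosis to the haploid stage was measured in control mouse male germ cells, by setting 3 libraries of round spermatids (RS) against 3 libraries of spermatocytes (Spc). The 6 libraries are part of a series of 35 samples on the loss of the endonuclease Smg6 from germ cells. Of 24411 gene rows present in both count tables, the comparison kept the 17046 that reached 10 counts in 3 or more of the 6 libraries. The other 7365 rows, 2672 of which had no count in any of the 6 libraries, are not described. The animals were adults of a mixed C57Bl/6J and SV129 background, and the cells were fractions of testis suspensions separated by sedimentation. Controls carried floxed Smg6 (fx/fx or fx/wt) and no Ngn3Cre, the transgene that deletes Smg6 from spermatogonia onwards in cKO littermates. The fractions are enriched and not pure. Nothing in the labels ties a numbered Spc library to the RS library of that number, and the p-values measure the spread between the libraries of a cell type, which the study calls biological replicates.

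Spermatocytes are the cells in meiotic prophase, in which homologous chromosomes pair along the synaptonemal complex and exchange strands, while the X and Y chromosomes are silenced in a separate chromatin domain. Round spermatids are the haploid cells made by the meiotic divisions. In them the acrosome is built from Golgi vesicles, the tail starts to grow, and many messages for later stages, among them those of the transition proteins and protamines, are made and stored before translation. The transcription factor CREM binds the cyclic AMP response element (CRE) in promoters of many such genes.

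The deposited files held 42225335 to 49940226 counts per Spc library and 42353207 to 47609016 per RS library, on genes and repeat elements together. Elements took 4.52 to 5.65% of them and are not described. Values below are normalized read counts, that is counts divided by each library's effective size by the trimmed mean of M-values (TMM) and scaled to the mean of the 6 libraries. A gene was called where edgeR's quasi-likelihood test gave a Benjamini-Hochberg adjusted p no higher than 0.05 and the log2 fold change was 1.5 or more in either direction. Libraries of 1 cell type correlated with r from 0.974 to 0.990 on log2 CPM (counts scaled to library size) across genes, against 0.854 to 0.934 between cell types. The first principal component held 88.25% of the variance.

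By these rules 2895 genes (17.0% of those tested) were higher in RS and 2901 (17.0%) were lower. At the adjusted p alone, 6169 genes were higher and 6775 lower. The 3 RS values and the 3 Spc values did not overlap for 5770 of the 5796 called genes (34.0% of those tested), against 80.6% of all genes tested. The scale decides where 0 lies. TMM put the median over all genes at a log2 fold change of -0.08, and library size alone put it at -0.54. On library size alone 1130 genes (6.63%) were called higher and 4363 (25.6%) lower, so that higher genes made up 20.6% of the calls and not 49.9%. Of the 2895 genes higher under TMM, 2832 still passed an adjusted p of 0.05 in edgeR on library size. Counts and medians of a list are under TMM unless library size is named. The counts of calls in each list are to be read beside the shares over all genes given above. A level here is a share of the RNA of a fraction and not of a cell. Fewer transcripts per cell and fewer cells with the transcript cannot be told apart in such samples.

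The directions had different shapes. Among the genes called higher, log2 fold changes between the 5th and the 95th percentile ran from 1.55 to 2.58, with 66.4% under 2 and only 15 of 2895 above 3. Among the genes called lower the same range was -1.55 to -3.62, and 399 of 2901 were below -3. The genes called higher were not near 0 in Spc. Their median level, as a share of their own mean in RS, was 36.9% in Spc 1, 20.2% in Spc 2 and 23.3% in Spc 3. As a share of all gene counts, 10 genes of late spermatids summed to 0.838, 0.428 and 0.432% in Spc 1, 2 and 3 and to 2.90, 2.36 and 2.92% in RS 1, 2 and 3. Spc 1 had the highest share of the Spc libraries, and without it 3233 genes were called higher. The part of these levels in the fold changes was not tested.

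**Figure D1:**
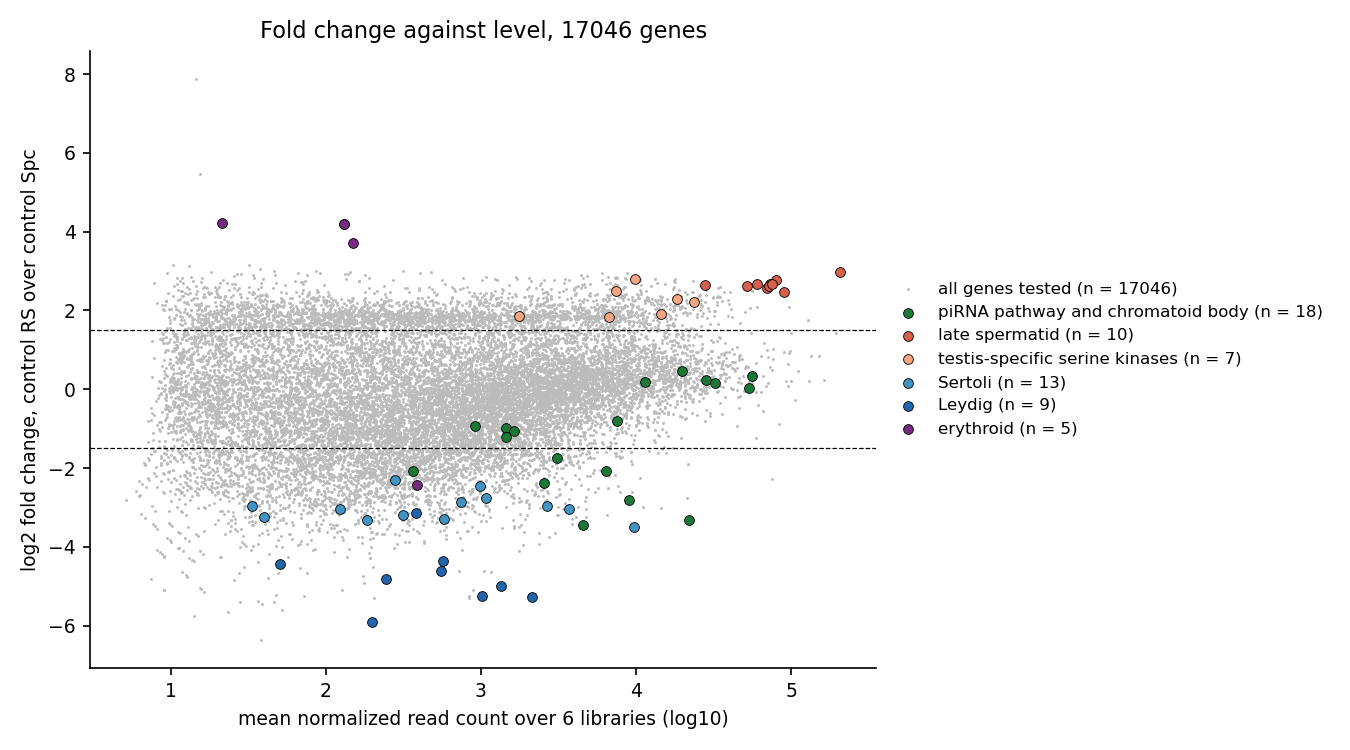
Each point is 1 of the 17046 genes, with its mean normalized read count over 6 libraries (log10 axis) and its log2 fold change of control RS over control Spc; dashed lines mark 1.5 in size and colours mark 6 of the gene lists. The late spermatid genes lie between 2.48 and 2.97 and the 9 Leydig genes between -3.15 and -5.91.

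Most listed messages of the proteins that pack the spermatid nucleus rose, 7 of 12. Transition proteins replace histones and are then replaced by protamines. Prm2, a protamine, had 73090.2, 34933 and 32727 normalized counts in Spc 1, 2 and 3 and 396236, 305298 and 402183 in RS 1, 2 and 3. Its log2 fold change was 2.97 ± 0.33 (SE, edgeR adjusted p = 0.000252). Prm1 had 32126, 15073 and 13709.9 in Spc and 155434, 107642 and 154780.0 in RS, a log2 fold change of 2.78 ± 0.36. In both genes every RS value lay above every Spc value, RS 2 was the lowest RS library and Spc 1 the highest Spc library. Tnp1 and Tnp2, the transition proteins, went from means of 16351 and 20433 to 104191 and 129837, a log2 fold change of 2.67 for each. Prm1, Prm2, Prm3 and Tnp2 lie next to one another on the minus strand of chromosome 16 (GRCm38, from 10787936, the end of Tnp2, to 10805839, the start of Prm1), while Tnp1 is on chromosome 1. The gap between neighbours was not the same in level: per kilobase of exon, Prm2 had 411528 normalized counts in RS, Prm1 243933, Tnp2 234362 and Prm3 22991. The linker histones of spermatids rose as well, H1fnt (now H1f7) by a log2 fold change of 2.37 and Hils1 (H1f9) by 2.10. In all, 7 packaging genes were called higher, 5 were not called and 0 were lower, with a median log2 fold change of 2.24 against -0.08 over all genes tested, and on library size alone the 7 calls stood. The testis linker histone Hist1h1t (H1f6) had 30.9 to 65.7 normalized counts in Spc and 124 to 155 in RS, a log2 fold change of 1.44 that was not called, and was called with DESeq2 (1.51) and without Spc 1 (1.66) or RS 1 (1.51). These counts are low, and the libraries were of polyadenylated RNA. Histone transcripts without a poly(A) tail are not counted in full, so the values do not give the level of this gene in either cell type.

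Of 9 factors of histone replacement, 3 rose and 1 fell, with a median of 0.45. On library size 2 rose and 1 fell, with a median under 0. Hmgb4, a high mobility group protein, went from a mean of 3843 to 19533 (log2 fold change 2.35), the chromodomain protein gene Cdyl from 4258 to 17569 (2.05) and the remodeller Chd5 from 10759 to 38655 (1.85). Rnf8, the ubiquitin ligase that marks histones H2A and H2B, fell from a mean of 525 to 185. Its log2 fold change of -1.51 ± 0.14 was just past the threshold, and it was not called with DESeq2 (-1.44) or without Spc 2 or RS 3.

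**Figure D2:**
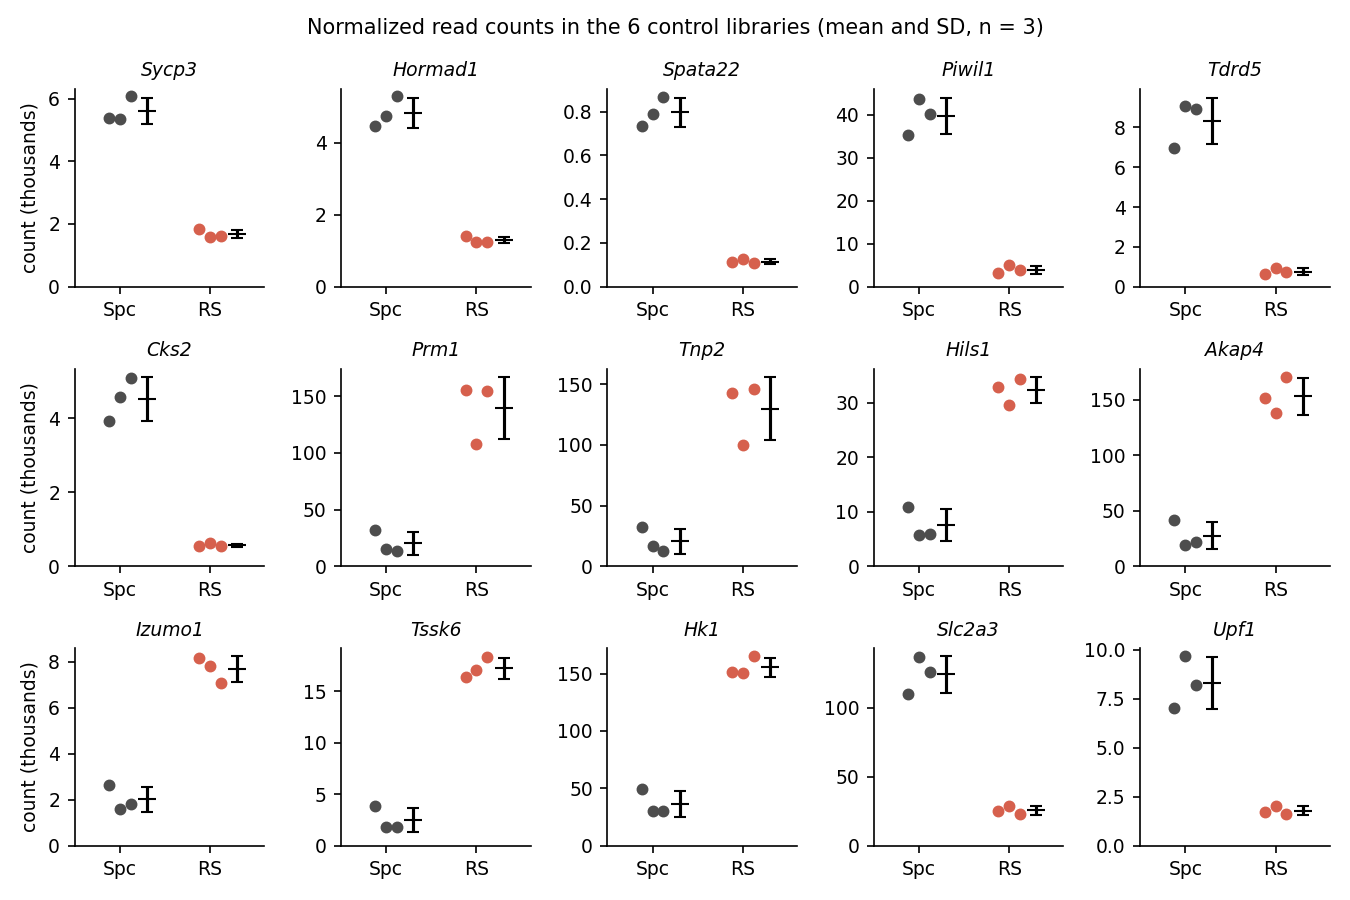
Normalized read counts (linear axes from 0) of 15 genes in the 3 Spc and the 3 RS libraries, 1 point each, with mean and SD beside them. In each panel the cell types do not overlap, and in the rising genes Spc 1 is the highest Spc library.

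Of 14 transcription regulators of this transition 2 rose and 0 fell (median 0.46), and on library size 1 rose and 1 fell (median 0.00). The shares called higher over all genes tested were 17.0% under TMM and 6.63% on library size, so these counts are near the background. Fhl5, the CREM coactivator also known as ACT, had 4738, 2258 and 2577 normalized counts in Spc and 12972, 11944 and 14869 in RS (log2 fold change 2.06 ± 0.28, edgeR adjusted p = 0.000483). Sox5 followed with 1.80. Crem itself had 9268, 6703 and 7717 in Spc and 15983, 16310.3 and 15710.4 in RS, a log2 fold change of 1.02 ± 0.12 (edgeR adjusted p = 0.000296), which passed the p but not the size of the call. Rfx2, a regulator of ciliary genes, had a log2 fold change of 0.54, and Mybl1, the master regulator of pachytene transcription, one of -1.38.

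Synaptonemal complex and recombination genes were called in both directions. Of 11 synaptonemal complex genes 5 fell and 1 rose (median -1.45), or 6 and 1 on library size (median -1.91). Sycp3, of the axial element, had 5370.1, 5341 and 6078 normalized counts in Spc and 1825, 1582 and 1622 in RS, a log2 fold change of -1.74 ± 0.09 (edgeR adjusted p = 3.16e-05). Sycp2, Hormad1, Tex12 and 4930447C04Rik (Six6os1) fell by 1.62, 1.89, 2.07 and 1.68 on the log2 scale. Sycp1, the transverse filament, had -0.87 and was not called. Syce2, of the central element, went the other way, with 3132, 1479 and 1994 in Spc and 8408, 8112 and 10587 in RS, a log2 fold change of 2.04 ± 0.27. Of 26 recombination genes tested, 6 fell, 1 rose and 19 were not called, and their median was -0.18. On library size 7 fell and 0 rose (median -0.64), beside 17.0% and 25.6% of all genes called lower on the TMM and library size scales. Those that fell included Ccnb1ip1, Spata22, Mcmdc2 and Mlh3, which act in strand invasion and crossover formation, with log2 fold changes of -3.14, -2.79, -2.49 and -2.25. Spo11, which makes the breaks, was lower in all 3 RS libraries but with a log2 fold change of -0.91. Tex15 rose, at 1.56, but its log2 fold change on library size was below the threshold.

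The 6 cohesin genes held 1 that rose and 1 that fell (median 0.43), beside 17.0% of all genes tested called in each direction. On library size 0 rose and 1 fell (median -0.02), beside 6.63% and 25.6%. Rec8, the meiotic kleisin, rose from 3792, 2179.7 and 2043 to 9280.2, 9195 and 9426 (log2 fold change 1.80 ± 0.23), and Sgol2a (Sgo2a), which protects centromeric cohesin, fell by 1.56 on the log2 scale but was not called with DESeq2 (-1.49). The other 4 of 6 cohesin genes were not called, and on library size Rec8 was not called either. Of 21 division genes 4 fell and 0 rose (median -0.21), or 5 and 0 on library size (median -0.67), beside the 17.0% and 25.6% of all genes tested that were called lower on the 2 scales. Cks2, a cofactor of the cyclin-dependent kinases, had 3919, 4573 and 5102 normalized counts in Spc and 539, 616 and 551 in RS, a log2 fold change of -2.99 ± 0.12 (edgeR adjusted p = 2.45e-05). The spindle checkpoint gene Mad2l1, the kinase gene Aurkb and Cdk1 fell by 1.99, 1.78 and 1.55 on the log2 scale. Cdk1 was not called with DESeq2, without RS 1 or without Spc 3. With DESeq2 the division list had 3 falls and 1 rise.

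Of the listed genes of the piRNA pathway and the chromatoid body, some PIWI genes and processing factors fell. PIWI proteins bind piRNAs, small RNAs that silence transposons and, in meiosis, come from long pachytene precursors. In RS the chromatoid body is a cytoplasmic granule of such proteins. Of 18 listed genes 7 fell and 0 rose (median -1.01). Tdrd5, needed to process pachytene precursors, had 6989, 9073 and 8913 normalized counts in Spc and 621, 931 and 731 in RS, a log2 fold change of -3.45 ± 0.18 (edgeR adjusted p = 3.06e-05). Piwil1, the pachytene PIWI protein, had 35218, 43715 and 40061 in Spc and 3139, 4929 and 3775 in RS, a log2 fold change of -3.33 ± 0.19. Tdrd1, Pld6, Pnldc1, Piwil2 and Mov10l1 fell by 2.80, 2.37, 2.08, 2.07 and 1.75 on the log2 scale. Ddx4 and Tdrd6, also of the chromatoid body, had log2 fold changes of 0.16 and 0.04, neither past the adjusted p, and Mael one of 0.34. These 3 genes had small negative values on library size, where 9 of the 18 were called lower and 16 passed the adjusted p downward (median -1.47).

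Of 18 listed genes of the acrosome 8 rose, 1 fell and 9 were not called (median 0.67). Acrv1, an acrosomal matrix protein, had 5797, 3389.5 and 4074 normalized counts in Spc and 17138, 16920.0 and 14704 in RS, a log2 fold change of 1.88 ± 0.20 (edgeR adjusted p = 0.000208). Spaca1, Spaca3, Spaca7, Zp3r and the hyaluronidase gene Spam1 had 1.81, 1.84, 1.99, 1.88 and 1.86. By contrast Acr, the acrosomal protease, and Acrbp, its binding protein, had 0.71 and 0.53 and were already at 5789 and 6061 normalized counts per kilobase in Spc. Gopc, a Golgi protein needed for acrosome assembly, fell from 2222, 2631 and 2658 to 478, 482 and 457 (log2 fold change -2.41 ± 0.10). On library size 1 of the 8 rising genes stayed over the size threshold and 2 of the 18 were called lower (median 0.22). On that scale 9 of the 18 had a positive log2 fold change that passed an adjusted p of 0.05 in edgeR, and 4 a negative one.

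The 24 tested genes of sperm-egg fusion and of the Adam family of surface proteins held 15 that rose and 0 that fell (median 1.84). Izumo1, the sperm receptor for the egg, had 2636, 1594 and 1797 in Spc and 8176, 7821 and 7058 in RS, a log2 fold change of 1.94 ± 0.19 (edgeR adjusted p = 0.000177). Izumo2, Tmem95, Calr3 and Adam1a had 2.10, 1.95, 2.10 and 2.00. Adam3, which guides sperm through the oviduct, was at 56637 ± 6421 (SD, n = 3) in Spc and 96015 ± 3768 in RS and was not called (log2 fold change 0.76), and Adam2 had -0.22. Here 5 of the 15 rises were called on library size.

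Genes of the sperm tail, the axoneme and transport are given as separate lists. Of 22 genes of the sheath, fibres and mitochondria 13 rose and 0 fell (median 1.93), and 10 were called on library size. Odf1, of the outer dense fibres, had 21519, 10575 and 11550.2 normalized counts in Spc and 95238, 79655 and 92712 in RS, a log2 fold change of 2.62 ± 0.28 (edgeR adjusted p = 0.000221). Akap4 and Akap3, of the fibrous sheath, had 2.48 and 1.96, and Smcp, Oaz3 and Spata18 had 2.62, 2.67 and 2.65. Odf2 was among the most abundant genes of both cell types, with a mean of 105594 in Spc and 284823 in RS, and at 1.43 was under the size threshold. Of 14 axonemal dynein genes tested 2 rose, 1 fell and 11 were not called (median 0.07), and on library size 0 rose and 1 fell (median -0.39). These counts were no higher than the shares over all genes tested, 17.0% in each direction under TMM and 6.63% and 25.6% on library size. Dnah2 fell from 20123, 24501 and 20502 to 7569, 7622 and 7735 (-1.51, not called with DESeq2 at -1.44, nor without Spc 2, RS 1 or RS 2), and Dnah5 and Dnah9, both under 900 counts in each library, rose by 1.81 and 1.55. The manchette and intraflagellar transport list of 16 had 0 rises and 1 fall, of Ift20 (-1.51, not called with DESeq2 at -1.44, without RS 3 at -1.46 or without Spc 3 at -1.48), with a median of 0.18 that was -0.27 on library size.

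The sperm calcium channel CatSper is a complex of pore and auxiliary subunits, and these differed. The pore genes Catsper1, Catsper3 and Catsper4 rose with log2 fold changes of 1.80, 1.83 and 1.88, whereas Catsper2, the fourth pore gene, had 0.34. Catsper1 had 4635, 2735 and 3115 normalized counts in Spc and 11885, 12819.5 and 11741 in RS. The auxiliary subunit gene Catsperd had 10048, 10889.9 and 10542 in Spc and 7166, 6561 and 6698 in RS, a log2 fold change of -0.62 ± 0.07 (edgeR adjusted p = 0.000288). Kcnu1, the sperm potassium channel, and Lrrc52, its partner, rose by 1.72 and 1.83. In all 5 of 13 channel genes rose and 0 fell (median 0.34), and 0 of 13 were called on library size, where 6 had a positive log2 fold change that passed an adjusted p of 0.05.

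All 6 testis-specific serine kinase genes and Tsks, the gene of a substrate of these kinases, rose (median of the 7 genes 2.23), and 4 of them were called on library size. Tssk6, needed for DNA condensation, had 3816, 1775 and 1812 in Spc and 16325, 17004 and 18324 in RS, a log2 fold change of 2.80 ± 0.31 (edgeR adjusted p = 0.000241). The other six ranged from 1.84 for Tssk4 to 2.49 for Tssk3.

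Glycolysis changed step by step, between enzymes and between copies of 1 enzyme. Of 23 genes 8 rose and 4 fell (median 0.55), and on library size 5 rose and 5 fell (median 0.09). Hk1, which opens the pathway and has a sperm form, had 49547, 30048 and 29827 normalized counts in Spc and 151359, 150206 and 165287 in RS, a log2 fold change of 2.09 ± 0.21 (edgeR adjusted p = 0.00018). Gapdhs, the sperm glyceraldehyde-3-phosphate dehydrogenase, rose from 20219 ± 8733 to 119891 ± 9751 (SD, n = 3), and Gpi1, Aldoart1, Aldoart2, Pkm and Pgk2 had log2 fold changes of 2.43, 2.14, 2.14, 1.67 and 1.82. Those that fell were the glucose transporter gene Slc2a3, Pfkl, Pgam1 and the X-linked Pdha1. Slc2a3 was the most changed of the 10 most abundant Spc genes, with 109964, 136604 and 125895 in Spc and 24927, 28941 and 22736 in RS, a log2 fold change of -2.28 ± 0.13. Ldhc, the germ cell lactate dehydrogenase, was high in both, at 94960.1 normalized counts per kilobase in Spc and 111707 in RS.

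**Figure D3:**
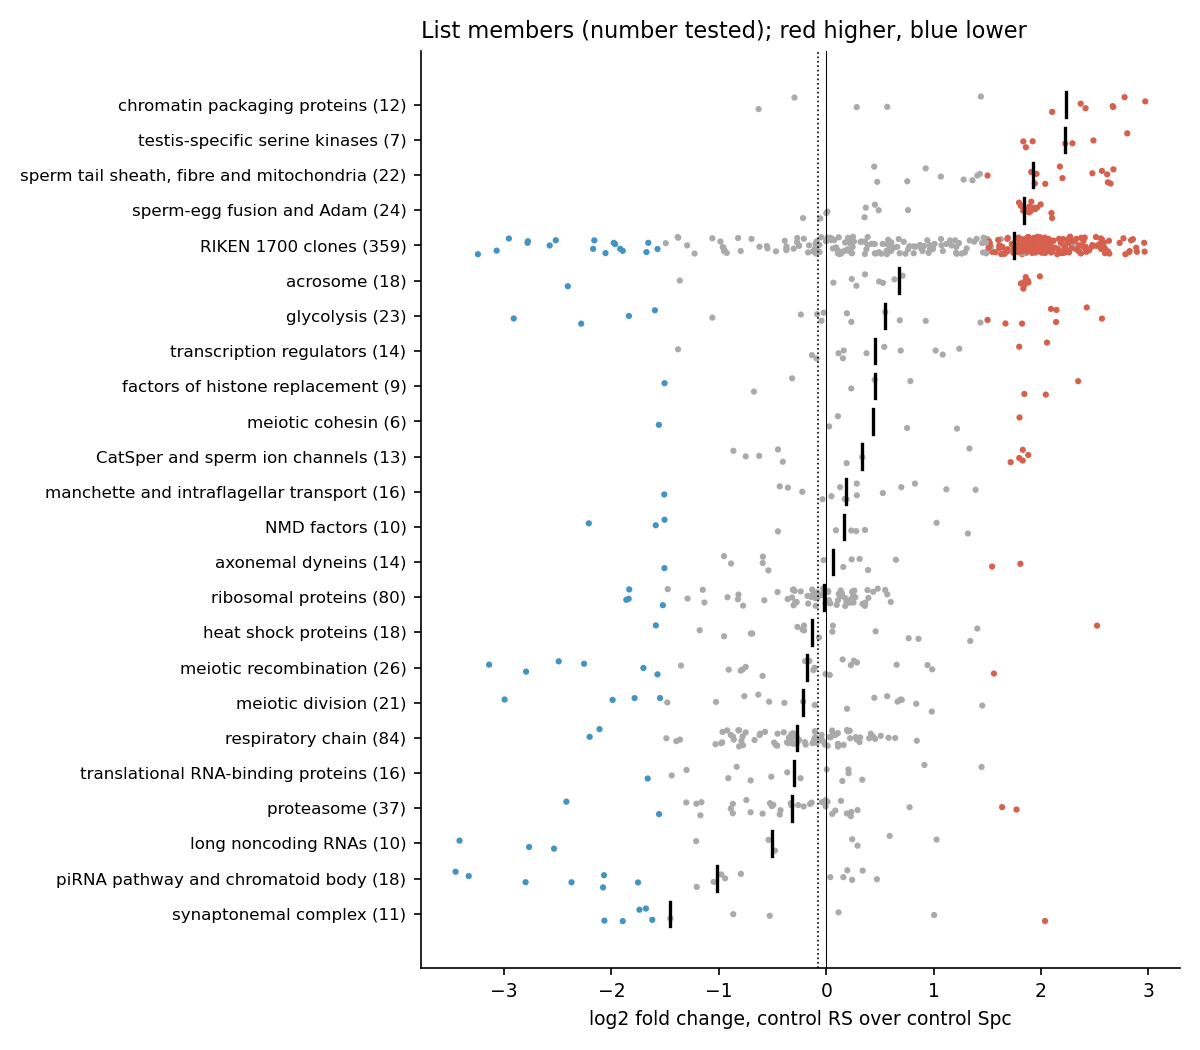
Log2 fold change of control RS over control Spc for each tested member of 24 lists, 1 point a gene, red where called higher, blue where called lower and grey otherwise, with the list median as a black bar and the median of all genes (-0.08) dotted. The median is 2.24 for packaging proteins and -1.45 for the synaptonemal complex.

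Genes of the X and Y chromosomes were called higher more often than autosomal genes. The sex chromosomes are silenced in pachytene spermatocytes, and part of their genes are transcribed again in spermatids. The share of gene counts on X genes was 0.630, 0.581 and 0.590% in Spc 1, 2 and 3 and 1.14, 1.06 and 1.16% in RS 1, 2 and 3, a ratio of means of 1.87 with no overlap. The exact two-sided permutation test over 3 against 3 libraries gave p = 0.1, the smallest it can give. Without the 10 most abundant X genes the ratio was 1.47, and on Y genes the share went from 0.0168 ± 0.00428% to 0.0368 ± 0.000932% (SD, n = 3). Of 723 X genes tested, 4.24% of all genes tested, 272 (37.6%) were called higher and 149 (20.6%) lower, against 15.8% and 16.9% of 16235 autosomal genes. The median log2 fold change was 0.80 on X and -0.10 on the autosomes. On Y 30 of 38 genes were called higher and 0 lower. Among autosomes, genes called higher made up 12.3% on chromosome 18 to 23.4% on chromosome 14.

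**Figure D4:**
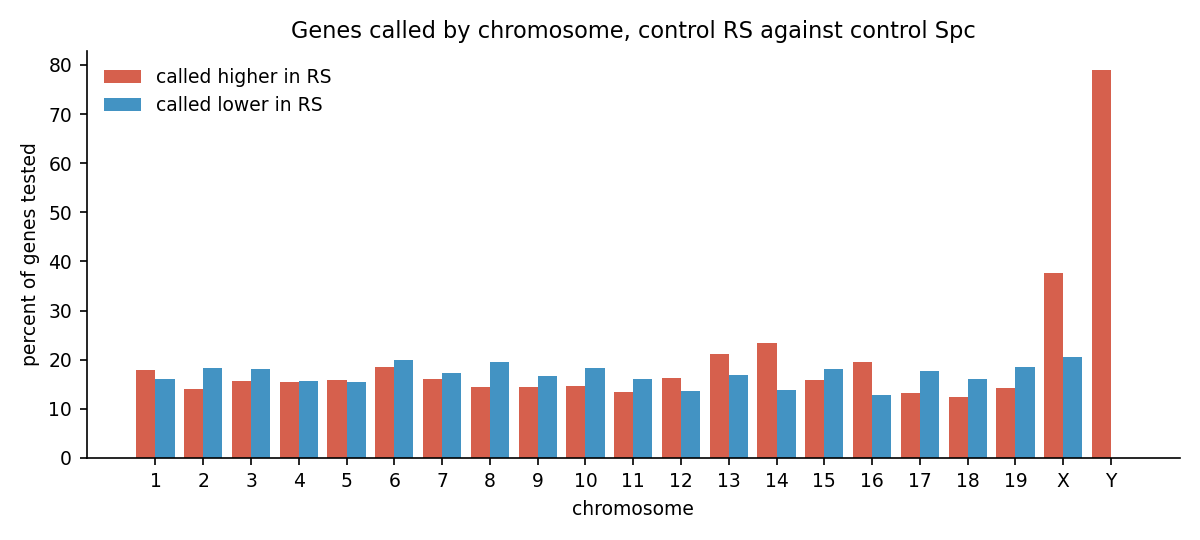
Share of the genes tested on each chromosome that were called higher (red) or lower (blue) in RS, in percent. X has 37.6% called higher and 20.6% lower, and Y has 78.9% and 0.

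Of 20 tested genes in the X and Y list 8 rose and 2 fell (median 1.19), and on library size 1 was called higher and 3 lower. Akap4, on the X (GRCm38, 7067519 to 7078609, plus strand), had 41248, 19015 and 22146 in Spc and 151151, 137772 and 170438 in RS. The multicopy genes Slxl1, Sly, Ssty1 and Ssty2, with 1.73, 1.73, 1.76 and 1.83, share reads with their copies, so their single values are uncertain, and Ssty2 had 0.55 with transcript counts summed per gene. Zfy2, a Y-linked zinc finger gene needed for sperm formation, had 240.3, 149.7 and 184 in Spc and 694, 648 and 629.9 in RS, a log2 fold change of 1.78 ± 0.19 (edgeR adjusted p = 0.000222). Tspyl2 and Ddx3x, on the X, fell by 2.85 and 1.83 on the log2 scale. In both Spc 1 was the lowest Spc library (455 against 1079 and 969 for Tspyl2), as it was for the summed Sertoli markers below. The part of other cells in these falls was not tested.

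Several X genes have autosomal copies that serve in their place while the X is silent. Per kilobase of exon in Spc, Pgk2 had 11244 normalized counts and its X-linked parent Pgk1 159.9, Rpl10l 7697 and Rpl10 292, Rpl39l 10101 and Rpl39 89.1, and Cetn1 12673 and Cetn2 60.1. In RS the autosomal copy was still the higher of each of these 4 pairs, with Pgk2 at 39806 and Pgk1 at 183. The X-linked parents did not share a direction. Pdha1 and G6pdx fell by 1.84 and 1.91 on the log2 scale, Rpl10 had -1.13, Pgk1 0.19, Upf3b 1.32 and Cstf2 rose by 1.68. Cstf2, a 3' end processing factor, and its autosomal copy Cstf2t crossed, from 167.5 and 674 normalized counts per kilobase in Spc to 537 and 213.8 in RS. Cstf2 went from 2024, 1212 and 1377 to 4745, 4759 and 5284, and Cstf2t from 2722, 2926 and 2913 to 807, 1023 and 885. G6pd2, the autosomal copy of G6pdx, rose by 1.92 and was the higher of its pair per kilobase in both cell types (411 against 71.7 in Spc and 1547 against 19.1 in RS). In the list of 20, 3 rose and 3 fell (median 0.32), and on library size 0 rose and 5 fell (median -0.14). Over all genes tested 17.0% were called in each direction under TMM, and 6.63% higher and 25.6% lower on library size.

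Genes of general metabolism moved little under TMM. Of 80 ribosomal protein genes 0 rose and 4 fell, namely Rpl14, Rpl10a, Rps4x and Rps27a (log2 fold change -1.86, -1.84, -1.83 and -1.52), with a median of -0.02. On library size 8 fell and 0 rose (median -0.48), with 64 past the adjusted p downward. Of 84 respiratory chain genes 0 rose and 2 fell, Cox7b and Ndufc2 (median -0.27). On library size 0 rose and 5 fell (median -0.73), with 70 past the adjusted p downward. Of 37 proteasome genes 2 rose and 2 fell (median -0.32), and on library size 0 rose and 6 fell (median -0.78), with 34 past the adjusted p downward. Psma8, the subunit of the spermatocyte proteasome, had 6682, 7586 and 8078 in Spc and 1369, 1465 and 1343 in RS (log2 fold change -2.42 ± 0.10, edgeR adjusted p = 2.45e-05), while Psma6 rose by 1.77. Of 18 heat shock genes, Hspa1l rose (2.52), Hspa8 fell (-1.59) and 16 were not called (median -0.14), among them Hspa2, the testis chaperone, at -0.07. On library size 1 rose and 2 fell (median -0.59).

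Of 10 factors of nonsense-mediated decay 3 fell and 0 rose (median 0.16), and on library size also 3 and 0 (median -0.29). The shares called lower over all genes tested were 17.0% and 25.6% on the 2 scales. In this pathway UPF1 is the helicase that marks transcripts with a premature stop, and SMG6 cuts them. Upf1 had 7025, 9694 and 8219 in Spc and 1728, 2049 and 1611 in RS, a log2 fold change of -2.21 ± 0.15 (edgeR adjusted p = 5.66e-05). Smg8 and Smg9, of the complex that regulates the UPF1 kinase, fell by 1.59 and 1.51. Smg9 was not called with DESeq2, where 2 of the 10 fell, nor without RS 1 or Spc 3, and Smg8 was not called without RS 3. Smg6, the gene targeted in this series, had 7223, 6850.0 and 4507 in Spc and 8202, 5517 and 8829 in RS, so the groups overlapped (log2 fold change 0.28 ± 0.23, edgeR adjusted p = 0.297). Of 16 tested RNA-binding proteins of translation, Celf1 fell (-1.66) and 15 were not called (median -0.30), and on library size 3 fell and 0 rose (median -0.76). Pabpc1 and Ybx2, which bind stored messages, were abundant in both, with 0.21 each and negative values on library size. Genes that the study names, Fos, Lpxn and Fkbpl, had log2 fold changes of -1.87 ± 0.37, -1.77 ± 0.15 and 1.16 ± 0.13, of which Fos and Lpxn were called.

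Clone-named genes and long noncoding RNAs were called higher more often than lower. Of 359 tested genes named as RIKEN 1700 clones, which come from adult testis libraries and include both coding and noncoding genes, 200 rose and 17 fell (median 1.74), and on library size 114 rose and 23 fell (median 1.30). Of these 1700027A15Rik had 3053, 1397 and 1529 normalized counts in Spc and 17161, 13229 and 16129 in RS, a log2 fold change of 2.96 ± 0.32, and 1700006A11Rik, a protein-coding gene in GENCODE, fell by 3.24. By GENCODE biotype 1210 long noncoding genes were tested. Of these 504 (41.7%) were called higher and 151 (12.5%) lower, with a median of 0.88. Of 10 named long noncoding RNAs known from somatic cells 3 fell (Meg3, Snhg12 and Neat1, at -3.41, -2.77 and -2.53), 0 rose and 7 were not called, with a median of -0.51. On library size 4 fell.

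The rule of the 10 largest changes with a mean of at least 100 normalized counts named globin and germ cell genes at the top and genes of Leydig cells at the bottom. At the top stood the globin genes Hba-a1, Hba-a2, Hbb-b1 and Hbb-bs (4.20, 4.20, 3.71 and 3.71), and further down Cyp2a12, Prm2, 1700084D21Rik, 1700027A15Rik and the carbonic anhydrase gene Car2 (2.96). Hba-a1 and Hba-a2 had the same counts, as had Hbb-b1 and Hbb-bs, so the copies of each cannot be told apart. Hba-a1 had 16.7, 6.94 and 16.9 in Spc and 224, 256 and 262 in RS. The 10 lowest, from -4.96 to -5.91, were Hsd17b3, Klk1b21, Bhmt, Cyp17a1, Cyp11a1, Hsd3b6, Ephx1, Klk1b27, Insl3 and Agt, of which several encode enzymes or hormones of androgen synthesis in Leydig cells. Cyp17a1 had 2055, 5966 and 4532 in Spc and 92.3, 114 and 120.0 in RS.

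Markers of other testis cells were summed as a check of the fractions. All 9 tested Leydig markers (median -4.82) and all 13 Sertoli markers (median -3.04) fell, and their summed CPM were 144 to 480 and 483 to 1376 in Spc against 8.44 to 9.00 and 67.3 to 88.8 in RS. In both lists Spc 1 was the lowest Spc library. Of 14 tested spermatogonial markers 3 fell and 0 rose (median -0.50, summed 125 to 168 in Spc and 49.97 to 60.2 in RS). The share called lower over all genes tested was 17.0%. The summed macrophage, peritubular and endothelial lists were higher in RS (386 to 459, 328 to 365 and 18.6 to 28.0 against 138 to 213, 141 to 178 and 10.6 to 13.7), with 4, 3 and 2 rises and 1, 0 and 0 falls of 13, 6 and 6 tested, or 3, 1 and 0 rises and 2, 0 and 0 falls on library size. Aif1 and Actg2 carried the first 2 of these sums. Without them, a choice made after seeing the data, the macrophage sum was 42.3 to 51.3 CPM in Spc and 28.1 to 42.5 in RS, and the peritubular sum was 55.4 to 72.1 and 27.8 to 38.2. The defining markers Csf1r and Cd68 had under 300 counts in every library. Of 5 erythroid genes 4 rose and Alas2 fell (log2 fold change -2.44), and their sum was 11.7 to 23.6 in Spc and 16.6 to 19.3 in RS. Opposite changes lay behind that sum. Hba-a1 had 6.94 to 16.9 normalized counts in Spc and 224 to 262 in RS, and Hbb-bs 7.72 to 32.4 and 268 to 290. The part of other cells in the genes called lower was not tested.

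**Figure D5:**
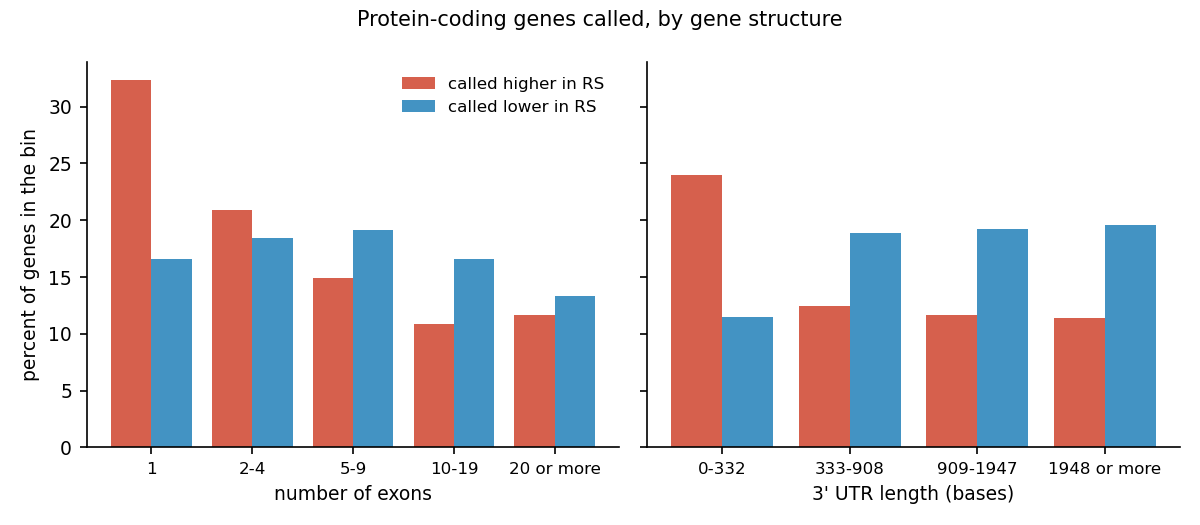
Percent of protein-coding genes called higher (red) or lower (blue) in RS, by number of exons of the main transcript (left) and by its 3' UTR length in bases, in 4 bins of like size (right). Single-exon genes have 32.4% called higher, and the bin of the shortest 3' UTRs has 24.0% higher and 11.5% lower.

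Genes that rose had compact transcripts. The median 3' untranslated region of protein-coding genes called higher was 519 bases, against 1103 for genes called lower and 908.5 for all 15444 tested, and their median transcript was 2378 bases against 2972 and 2906. Of 4 bins of like size, the one of the shortest 3' untranslated regions, up to 332 bases, had 24.0% called higher and 11.5% lower, while the other three had 11.4 to 12.5% and 18.8 to 19.6%. Of 482 single-exon coding genes 156 (32.4%) were called higher and 80 (16.6%) lower. The higher genes had a median of 6 exons, the lower 8. These are descriptions of the GENCODE annotation and not of the ends used in these cells.

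Promoters of the called genes were searched for the full palindromic CRE, TGACGTCA, in the 300 bases from 250 before to 50 after each RefSeq start (GRCm38.p6). The palindrome reads alike on both strands. It was in 2.25% of 2621 promoters of genes called higher, 1.97% of 2593 of genes called lower, 2.77% of 15975 of all genes tested and 1.79% of 32851 in the table. The median GC content of the same windows was 52.0% for genes called higher, 60.0% for genes called lower and 59.0% for all tested. The windows below are the 5 genes called higher with the largest change, a CRE and a mean of at least 100 counts, followed by the 3 called list members with a CRE. Each shows 10 bases on either side, 5' to 3' on the strand of the gene, with the CRE in capitals.
Neurl1a (chr19:47178708-47178735, plus strand): catctattccTGACGTCAggtccggagc
Iqcf3 (chr9:106561660-106561687, minus strand): ggtatctttgTGACGTCAtagccagctc
Csnk1g2 (chr10:80629600-80629627, plus strand): gaactgccagTGACGTCAgccagggact
Fam187b (chr7:30977004-30977031, plus strand): gttctgtgggTGACGTCAcagtacccaa
4930515B02Rik (chr4:140872667-140872694, plus strand): agcttctgttTGACGTCAccatggagac
1700041M19Rik (chr16:77010895-77010922, minus strand): agagattctaTGACGTCAtagtgttgct
Izumo1 (chr7:45621705-45621732, plus strand): tgccaccctaTGACGTCAcgatgggatg
Meg3 (chr12:109540929-109540956, plus strand): cagaatgcgcTGACGTCAaagaccaccc
Their log2 fold changes were 2.55, 2.47, 2.39, 2.39, 2.32, 1.95, 1.94 and -3.41. The first CRE base lay 16 to 102 bases before the start site. A match says only that these letters are in the window.

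Transcript counts were read for 8 genes with known stage forms. Reads shared by several transcripts of a gene had been split equally among them, so the transcripts of 1 gene carry much the same reads. Of 56018 transcripts tested 8008 (14.3%) were called higher and 7955 (14.2%) lower. All 20 transcripts of Hk1 (1.94 to 2.14) and all 4 of Ace were called higher. Ace-202, the short testis form of angiotensin-converting enzyme, had 2.32 and the long somatic form Ace-201, which shares its 3' exons, 2.17. The 39 transcripts of Crem had 0.78 to 1.35 and none was called, as for the tested transcripts of Kit, Ppp1cc, Acrbp and Prkaca, while the single one of Camk4 rose by 2.11. Only 8 genes had transcripts called in both directions. Mical2, an actin monooxygenase, was chosen from these after its values were seen. Its 4 transcripts called higher, of 877 to 2399 bases, had log2 fold changes of 1.92 to 1.94, and its 6 called lower, of up to 6669 bases, had -2.69 to -3.35. Mical2-203, the longest, had 335, 665 and 693 in Spc and 41.6, 69.6 and 63.6 in RS.

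In cKO cells, which share no library with the controls, 579 of 17709 genes (3.27%) were called higher in RS and 671 (3.79%) lower. On library size they were 740 and 482, and under TMM without Spc cKO 2 they were 1181 and 583. The genotype by cell type interaction over 12 libraries passed an adjusted p of 0.05 in edgeR for 7834 of 18171 genes (43.1%). The sign of that interaction turned with the scaling: 3459 genes were positive and 4375 negative under TMM, against 8087 and 545 on library size. The sperm tail list had a median of 1.93 on the log2 scale in controls and 0.86 in cKO cells, with 22 of 22 genes negative in the interaction under TMM. On library size the medians were 1.48 and 1.00, with 5 negative and 0 positive. For the piRNA list the medians were -1.01 and -0.90, with 2 interactions positive and 6 negative of 18 under TMM. On library size they were -1.47 and -0.75, with 13 positive and 0 negative. Sertoli markers had medians of -3.04 and 0.41, with 13 of 13 interactions positive under both scalings, and their summed CPM in cKO cells were 254 to 413 in Spc and 180.0 to 445 in RS. Macrophage markers had 0.74 and 2.23, with 7 of 13 interactions positive under TMM, and cKO sums of 120 to 132 in Spc and 497 to 728 in RS. Erythroid genes had 4.20 and 6.45, with 4 of 5 positive, and cKO sums of 1.68 to 3.75 and 76.2 to 294. Leydig markers had -4.82 and -2.61, with 0 of 9 interactions under TMM. The part of these cells in the genotype difference was not tested.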

How the data were processed

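Polyadenylated RNA of enriched Spc and RS fractions was sequenced as stranded libraries. Per the submitters' processing notes the tools were cutadapt 2.8, STAR 2.7.1a and featureCounts 2.0.1 on GRCm38, while the study's methods give other versions of STAR and featureCounts for gene-level analysis, and which made the files is not given in the sources used here. The authors deposited raw counts of genes and repeat elements from TEtranscripts, in a separate run for each cell type, and estimated counts of transcripts in which shared reads were split as fractions. The alignment names in the RS gene table carry another trimming label than those in the Spc table, so that difference and the cell type cannot be told apart in the gene counts. The transcript tables carry 1 label for both.

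Tables were joined by gene name, and elements were set aside. The test was edgeR 4.0.16 (R 4.3.3), quasi-likelihood with TMM and Benjamini-Hochberg adjustment, over genes with 10 counts in 3 libraries. Transcript counts were rounded to whole numbers, with a minimum of 20. The scripts were tested on simulated data. DESeq2 1.42.0, other scalings, filters, a replicate block, and each library left out were the alternatives. Gene positions came from GENCODE M21 and promoters from RefSeq (GRCm38.p6, without chromosome 18). Named genes were the 10 largest changes in each direction with a mean of 100 counts, the 10 most abundant per cell type, genes the study names and members of the lists. A gene that this rule names is not reported here. The members and lists were chosen with earlier results of these data known.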

Additional observations from a re-analysis of the deposited data

Results flagged for a closer look

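The change from Spc to RS differed between control and cKO cells for 7834 genes (edgeR's quasi-likelihood test of the interaction, Benjamini-Hochberg adjusted p of at most 0.05, 12 libraries). The differences below, cKO minus control, are from the fit over all 12 libraries, while the log2 fold change of each genotype is from the fit of its own 6 libraries with its own scaling, so that subtracting them does not give the difference exactly. The difference was -1.64 ± 0.45 (SE) for Akap4, which had 2.48 in controls and 0.96 in cKO cells (adjusted p = 0.0135). For Hk1 it was -1.47 ± 0.26, beside 2.09 in controls and 0.74 in cKO cells (adjusted p = 0.00174). Tdrd5 had a difference of 0.98 ± 0.23, beside -3.45 and -2.37 (adjusted p = 0.00634). That of Sycp3 was 0.59 ± 0.16, beside -1.74 and -1.03 (adjusted p = 0.0142). Rpl14 had 1.02 ± 0.15, beside -1.86 and -0.73 (adjusted p = 0.000777). Clu, a secreted chaperone made by Sertoli cells, had 2.72 ± 0.56, beside -3.49 and -0.67 (adjusted p = 0.00325). The signs of the whole set turned with the scaling, as given above, and the part of other cells and of spermatid RNA in the Spc libraries was not tested.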

How the results depend on the processing

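Of the 170 genes named here with a value, 138 were called, and no called gene changed sign under any alternative. On library size 29 of the calls were lost, all by falling under the fold threshold, and the counts became 1130 higher and 4363 lower, for transcripts 3089 and 12706, and for the interaction 8087 positive and 545 negative. On that scale uncalled genes turned negative, namely Ddx4 (-0.30), Tdrd6 (-0.42), Mael (-0.12), Catsper2 (-0.12), Pgk1 (-0.27), Ldhc (-0.22), Rpl10l (-0.31), Rpl39l (-0.071), Cetn1 (-0.15), Smg6 (-0.18), Pabpc1 (-0.25) and Ybx2 (-0.25). Tdrd6 also had -0.026 with transcript counts summed per gene and -0.030 to 0.064 when 1 library was left out. Cd68, at -0.01, had 0.054 with DESeq2 and -0.198 to 0.306 when 1 library was left out. Genes called numbered 5771 with DESeq2 (3056 higher), 6316 without a filter, 4081 with a minimum of 100 counts and 7169 with transcript counts summed per gene. Leaving out 1 library at a time gave 4696 to 6082 called genes, 2364 to 3233 higher and 2332 to 2913 lower. For transcripts this gave 10541 to 15367, with 5578 to 8574 higher and 4963 to 7957 lower, where without Spc 2 there were 4963 lower and without Spc 3 there were 5123. In cKO cells the range was 930 to 1764, with 477 to 1181 higher, the highest without Spc cKO 2, and 453 to 758 lower. For the interaction it was 6012 to 8920, with 2618 to 3918 positive and 3169 to 5002 negative, and for the ratio of X shares 1.84 to 1.92. Same-numbered control libraries had deviations from their group means that correlated at -0.161, -0.123 and -0.277, and those of cKO cells at -0.0688, 0.602 and 0.355, so the numbers are not taken as pairs in either genotype, since not every pair was over 0.1. Among controls of unlike number, Spc 1 with RS 3, Spc 2 with RS 1 and Spc 3 with RS 2 correlated at 0.404, 0.405 and 0.556. All other control pairs of unlike number were negative (-0.218 to -0.31). Whether libraries of unlike number shared animals was not tested, and the replicate block goes by number. With the replicate block 5740 genes were called in controls, 1411 in cKO cells and 7463 in the interaction, and 15921 transcripts. Of the named genes the call of Rnf8 was lost under the block, those of Cdk1, Dnah2, Ift20, Rnf8, Rps27a, Sgol2a and Smg9 with DESeq2 (-1.44 to -1.49), so that the cohesin, histone replacement, dynein and transport lists had 0 falls, and those of Dnah9, Ssty2 and Tex15 with transcript counts summed per gene (1.47, 0.55 and 1.49). Calls of named genes were lost by values under the fold threshold without RS 1 (Cdk1, Dnah2 and Smg9, the last at -1.23), RS 2 (Dnah2, Rps27a), RS 3 (Ift20, Rnf8, Smg8), Spc 2 (Dnah2, Dnah9, Fos at -1.41, Hspa8, Pgam1, Rnf8, Slxl1, Tex15 at 1.38) and Spc 3 (Cdk1, Dnah9, Ift20, Rps27a, Smg9, Tex15). With 3 libraries per cell type and fractions that are not pure, genes near the threshold can fall on either side of it.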
